A study of Mus musculus with 19 samples.

Results

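The collagen chain genes of mouse extraembryonic and fetal tissues were described here: every gene of the RNA-seq tables whose symbol is Col, a type number, a and a chain number. There were 43 such genes among 23337 gene symbols, each taken as its most abundant transcript by mean count, and they were divided into 11 fibrillar chains, 6 basement membrane chains (type IV) and 26 chains of other types. RNA was sequenced from 11 libraries of 5 tissues, all made from total RNA depleted of ribosomal RNA. Yolk sac endoderm (ysE), the epithelium on the outer side of the visceral yolk sac (VYS), was taken at embryonic day E12.5 in 1 library and at E9.25 in 2 libraries (A and B). VYS mesoderm of E9.25 (2 libraries) and fetal liver of E12.5 (2 libraries) came from the same FVB/N strain, with a whole litter pooled for each sample. Cystic embryoid bodies (EBs), fluid-filled aggregates grown from embryonic stem cells, were collected on day (d) 10 and d15 of differentiation. They came from a pair of C57BL/6 x 129 clones, A9 (XY, library A) and JN (XX, library B), each of which is 1 clone. None of these RNA-seq samples carried a gene deletion or drug treatment according to the labels. The paper states that yolk sac layers were separated by hand after pre-treatment with the enzyme DispaseII, for longer at E12.5 than at the earlier stage. No such step is described for liver or cystic EBs. Blood vessels and the basement membrane stayed with the mesoderm layer, so that the mesoderm libraries hold RNA of vessels too.

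Collagens are triple helices of 3 alpha chains. Fibrillar collagens such as types I, III and V assemble into the banded fibres of connective tissue and are made mainly by mesenchymal cells. Type IV chains form the sheet-like network of basement membranes, on which epithelia and endothelia rest, and the yolk sac has such a membrane between its endoderm and its mesoderm. Other types decorate fibrils (the FACIT group), form beaded filaments (type VI), span the cell membrane, or lie at basement membrane zones (multiplexins, types XV and XVIII).

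Libraries held 40453779 to 169981821 counts over all transcripts. The protocol differed between tissues: E9.25 libraries and clone JN were prepared with dUTP, liver and clone A9 with ScriptSeq, and E12.5 ysE without strand information. Protocol and tissue cannot be told apart for E12.5 ysE, or where liver is set against ysE or mesoderm. Clone, its sex and protocol cannot be told apart within cystic EBs. Levels are given as RPKM (reads per kilobase of transcript scaled to a common library size), which can be compared between genes, and differences as log2 fold changes from counts. Of the markers listed for each tissue, the summed RPKM of 6 ysE markers was 8824 to 39588 in the 3 ysE libraries, 983 to 1722 for mesoderm and 103 to 1157 among cystic EBs, and the liver libraries held 1522 and 2796. Afp made up most of the sum in ysE, mesoderm and liver. Amn and Cubn, which are part of the list, were at 19.5 and 31.9 and at 61.1 and 102 RPKM in mesoderm, whereas in liver Amn was under 0.1 RPKM and Cubn at 0.435 and 0.550. In bulk samples, fewer cells of a type and less RNA per cell cannot be told apart.

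Short stretches of upstream DNA are shown for a pair of contrasting fibrillar genes and for Col4a2 of the type IV pair. These genes were chosen because their levels were among the highest. The sequences are from RefSeq, build GRCm38.p6, plus strand, with capitals marking the TATA box letters (TATAAA), the letters CCAAT of the box named for them, and the GC box letters (GGGCGG), each searched on both strands; no other motif was searched and none of these overlap each other. Col4a1 and Col4a2 lie head to head on chromosome 8, on opposite strands, and their windows of 300 bases share 78 bases. The stretch from the Col4a2 window lies at chr8:11312752-11312781. It is upstream of the Col4a2 start (11312805) but downstream of the Col4a1 start (11312826, minus strand), so within the transcribed part of Col4a1. It was cut to begin just before a GC box match, so that match is there by choice. The 250 bases before the start of Col1a2 and Col3a1 lie at chr6:4505368-4505617 and chr1:45311288-45311537.
Col4a2: gcgcgCCGCCCgaggagctccCCAATttgt
Col1a2: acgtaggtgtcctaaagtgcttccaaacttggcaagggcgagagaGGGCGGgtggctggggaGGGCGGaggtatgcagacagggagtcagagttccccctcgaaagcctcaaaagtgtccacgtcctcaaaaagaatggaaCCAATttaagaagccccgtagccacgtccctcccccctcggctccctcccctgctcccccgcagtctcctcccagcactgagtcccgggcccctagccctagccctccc
Col3a1: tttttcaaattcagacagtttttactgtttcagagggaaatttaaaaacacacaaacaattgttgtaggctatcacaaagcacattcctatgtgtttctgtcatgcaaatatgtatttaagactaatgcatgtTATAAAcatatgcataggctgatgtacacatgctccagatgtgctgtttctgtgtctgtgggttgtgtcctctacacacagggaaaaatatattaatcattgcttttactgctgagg

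The printed stretch of Col3a1 held no CpG, against 11 in that of Col1a2. Promoter windows were found for 35 of the 43 genes. Over those, GGGCGG stood in 22 windows (62.9%), against 35.9% of 27025 promoters of the same length, and 4 of the 5 type IV windows held it. The member windows were also richer in G and C (median 60% against 52.7%) and in CpG (median 12 against 7) than all promoters, and the shares are not matched for this. CCAAT stood in 34.3% of member windows and 37.9% of all, and TATAAA in 14.3% and 14.2%. A match is a description of letters and not of a bound site.

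The summed RPKM of the 43 chains was 1889 ± 118 (SD, n = 2) for mesoderm, 248 ± 38.3 (SD, n = 2) for E9.25 ysE, 263 in the E12.5 ysE library, 286 ± 27.9 (SD, n = 2) for liver and 663 ± 467 (SD, n = 4) for cystic EBs. Fibrillar chains were 75.1% ± 0.710 of that sum in mesoderm and 49.4% ± 3.35 for liver (SD, n = 2 each), and type IV chains were 69.7% ± 4.51 for E9.25 ysE (SD, n = 2), 71.7% in E12.5 ysE and 63.7% ± 12.2 for cystic EBs (SD, n = 4). The mesoderm was therefore mostly fibrillar by this measure, and ysE and cystic EBs mostly type IV.

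**Figure D1:**
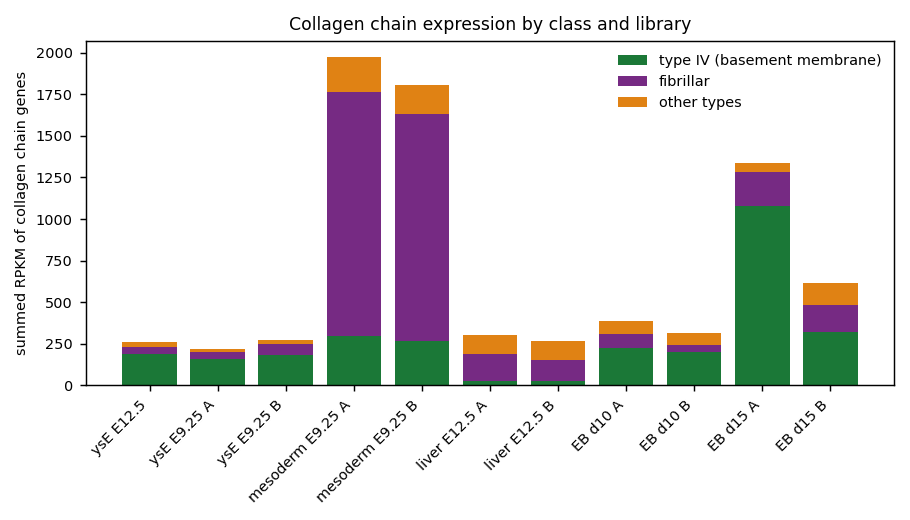
Summed RPKM of the 43 collagen chain genes (vertical axis) in each of the 11 libraries, stacked by class. Both mesoderm libraries are tallest and mostly fibrillar (mean sum 1889), and the d15 A library of cystic EBs is tall through its type IV chains.

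The heatmap of all 43 genes shows how few of them carry this sum. Genes at an RPKM of at least 1 numbered 24 to 26 in the mesoderm libraries, 20 to 22 in liver, 14 to 24 in cystic EBs, 14 in E12.5 ysE and 9 to 11 in E9.25 ysE. By mean RPKM, 8 of 11 fibrillar chains were highest in mesoderm, and of the 26 other chains 10 were highest in mesoderm and 11 in liver. Among those 11, Col19a1, Col6a4, Col10a1, Col17a1, Col8a2 and Col6a6 were low even in liver, with means of 0.0860 to 0.905 RPKM. The liver values of Col19a1, Col10a1 and Col8a2 overlapped those of cystic EBs.

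**Figure D2:**
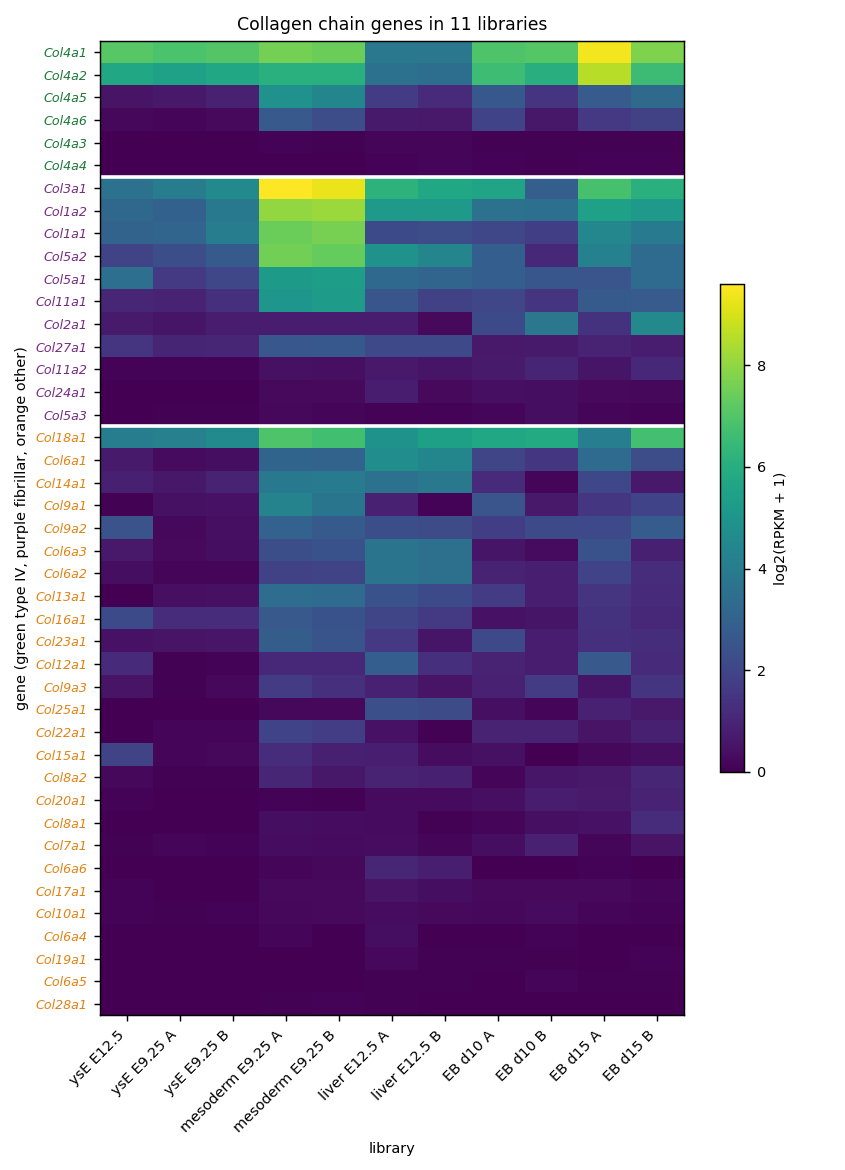
log2(RPKM + 1) of the 43 collagen chain genes (rows, by class and then by mean level) in the 11 libraries (columns). Col4a1 and Col4a2 are bright in every tissue except liver, and Col3a1, Col1a2, Col1a1 and Col5a2 are brightest in the mesoderm columns.

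Among type IV chains, Col4a1 and Col4a2 encode the widespread network pair. Col4a1 was at 136 RPKM for ysE of E12.5, 116 and 130 for ysE of E9.25, 193 and 174 for mesoderm, 13.5 and 13.1 for liver, 122 and 133 for d10 cystic EBs (A and B) and 693 and 213 for d15 cystic EBs. Col4a2 was at 52.7, 44.4 and 51.7 RPKM in the ysE libraries, 67.8 and 67.9 for mesoderm, 11.4 and 10.1 for liver, 98.0 and 63.8 for d10 cystic EBs and 375 and 94.4 for d15 cystic EBs. Liver was lowest for both genes with no overlap, and the d15 A library was far above all others. The ratio of Col4a1 to Col4a2 RPKM was 2.56 ± 0.0662 for E9.25 ysE, 2.71 ± 0.195 for mesoderm and 1.24 ± 0.0869 for liver (SD, n = 2 each), and 1.86 ± 0.443 for cystic EBs (SD, n = 4). Within cystic EBs the A9 libraries had ratios of 1.24 (d10) and 1.85 (d15), and the JN libraries 2.08 and 2.26. Liver and A9, both ScriptSeq, thus lay below JN and the E9.25 tissues, all dUTP. Protocol cannot be told apart here from tissue or, within cystic EBs, from clone. The part of the protocol in the liver value was not tested.

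Col4a5 and Col4a6, which also lie head to head, on chromosome X, were low in ysE. Col4a5 was at 0.425, 0.573 and 0.822 RPKM in ysE, 28.2 and 20.1 for mesoderm, 2.14 and 1.27 for liver and 5.26, 1.74, 5.72 and 8.95 for cystic EBs (d10 A, d10 B, d15 A, d15 B). Mesoderm lay above all other libraries and ysE below them. Col4a3 and Col4a4, chains of the mature kidney and other specialised membranes, stayed at or under 0.0970 RPKM in every library.

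Col18a1, the type XVIII chain of basement membrane zones, was at 15.8, 17.2 and 22.3 RPKM in ysE, 122 and 103 for mesoderm, 29.4 and 43.1 for liver and 52.5, 57.0, 16.01 and 104 for cystic EBs. The d15 A library was at the ysE level, while d15 B was at the mesoderm level.

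The fibrillar chains Col1a1 and Col1a2 encode the type I heterotrimer, and Col3a1 encodes type III. Col1a1 was at 7.33, 7.73 and 15.5 RPKM in ysE, 174 and 198 for mesoderm, 3.44 and 3.80 for liver and 3.14, 2.43, 20.7 and 13.995 for cystic EBs. Col3a1 was at 10.9, 15.6 and 23.4 RPKM in ysE, 774 and 644 for mesoderm, 72.6 and 52.1 for liver and 47.5, 6.59, 109 and 66.7 for cystic EBs. Mesoderm stood above every other library for both genes, and liver held far more Col3a1 than Col1a1, with a ratio of 17.4 ± 5.27 (SD, n = 2) against 3.85 ± 0.830 (SD, n = 2) for mesoderm. Among cystic EBs the A9 libraries had ratios of 15.1 and 5.28 and the JN libraries 2.71 and 4.76, so it too was higher in each ScriptSeq library than in any dUTP library.

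Col2a1, the type II chain of cartilage, was at 3.47, 13.1, 1.65 and 22.0 RPKM in cystic EBs, and at 0.181 to 0.708 in the other 7 libraries, with no overlap. The higher cystic EB values were those of clone JN on both days.

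The type VI chains form beaded filaments. By mean RPKM, 5 of the 6 were highest in liver, and Col6a5, at most 0.0860 in any library, was highest in cystic EBs. Among the 5, Col6a4 was at 0.277 and 0.004 RPKM in liver, so its place rests on 1 liver library at a low level. Col6a1 was at 25.2 and 20.05 RPKM in liver, 7.54 and 7.31 for mesoderm, 3.04, 1.87, 9.27 and 3.80 for cystic EBs and 0.202 to 0.636 for ysE. The summed RPKM of the type VI group was 46.3 ± 5.69 for liver and 14.6 ± 0.175 for mesoderm (SD, n = 2 each).

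Most of the other fibrillar chains were also highest in mesoderm. Col1a2 was at 8.16, 6.87 and 13.5 RPKM for ysE, 263 and 282 for mesoderm, 34.5 and 35.1 for liver and 11.01, 10.2, 44.4 and 36.0 among cystic EBs. Col5a2, a type V chain, was at 2.90, 3.88 and 5.59 RPKM for ysE, 185 and 158 for mesoderm, 29.0 and 19.9 for liver and 6.24, 1.07, 17.5 and 9.21 among cystic EBs. Col11a1, a chain of cartilage fibrils, was at 0.873 to 1.52 RPKM for ysE, 32.2 and 37.4 for mesoderm, 4.88 and 2.58 for liver and 1.74 to 5.69 among cystic EBs. In all of these the mesoderm pair stood apart from the other 9 libraries. Col5a1 was also highest in mesoderm (36.5 and 39.6 RPKM), but its E12.5 ysE value of 10.4 lay above both E9.25 values of 2.09 and 3.15. Col27a1 was at 5.11 and 5.21 RPKM for mesoderm, 3.39 and 3.38 for liver, 0.998 to 1.78 for ysE and 0.572 to 0.899 among cystic EBs, the lowest of the tissues. Of the fibrillar chains at a low level, Col5a3 had its highest mean in mesoderm, at 0.147 RPKM. Its cystic EB values of 0.0780 to 0.276 RPKM overlapped the mesoderm values of 0.162 and 0.131. Col11a2 had its highest mean in cystic EBs, at 0.449 to 1.12 RPKM there against 0.456 and 0.595 for liver, which overlapped it, and 0.309 and 0.353 for mesoderm. Col24a1 had its highest mean in liver, at 0.195 and 0.694 RPKM against 0.179 and 0.198 for mesoderm, so that the liver pair began within the mesoderm range.

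Chains that decorate fibrils or span the membrane varied more. Col14a1, a FACIT chain, was at 13.8 and 14.01 RPKM for mesoderm, 10.9 and 13.4 for liver, 0.540 to 0.935 for ysE and 0.132 to 3.20 among cystic EBs. Col12a1 was at 6.32 and 1.497 RPKM in liver, 0.875, 0.686, 5.44 and 1.27 among cystic EBs (d10 A, d10 B, d15 A, d15 B), 1.09 and 1.10 in mesoderm, 1.27 in E12.5 ysE and 0.0490 and 0.0630 in E9.25 ysE. Outside liver and d15 A its values lay near those of mesoderm, except in E9.25 ysE, where it was lowest. Col9a1 was at 18.7 and 12.2 RPKM in mesoderm and 0.833 and 0.0670 in liver, with 0.559 to 4.75 among cystic EBs. The liver pair differed widely for Col12a1 and Col9a1, whereas the mesoderm pair was close for Col14a1 and Col12a1. Of the 4 transmembrane chains, Col13a1 (9.86 and 9.21 RPKM) and Col23a1 (6.09 and 4.61) were highest in mesoderm. Col25a1 (4.14 and 3.55 RPKM) and Col17a1 (0.414 and 0.273) were highest in liver. The type VI partners Col6a2 (11.8 and 10.8 RPKM) and Col6a3 (11.99 and 10.7) were highest in liver, as Col6a1 was.

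**Figure D3:**
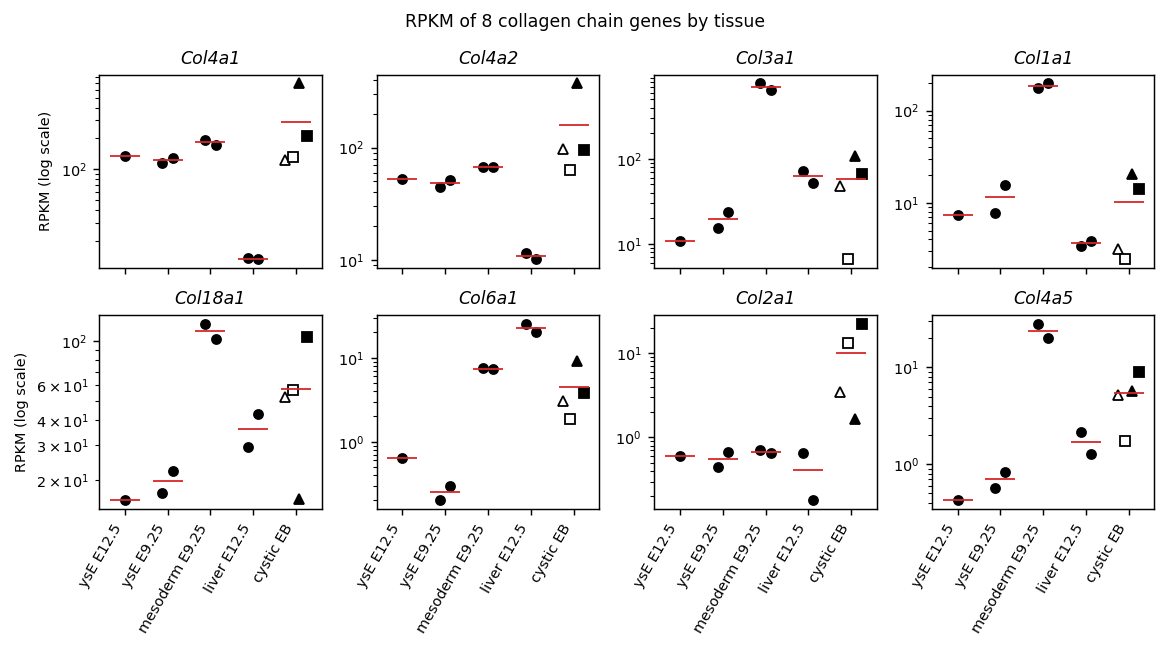
RPKM (log axis, range set per panel) of 8 collagen chain genes by tissue. Circles are tissue libraries, triangles are clone A9 and squares clone JN (open d10, filled d15), and red lines are means; liver is lowest for Col4a1 and Col4a2, and mesoderm is highest for Col3a1, Col1a1 and Col4a5.

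The first comparison asked how the endoderm and the mesoderm of the same yolk sac stage differ. In E9.25 ysE against mesoderm, 31 of 43 chains were lower in ysE and 0 were higher, by edgeR (quasi-likelihood, Benjamini-Hochberg) at a false discovery rate (FDR) of 5%. Of all 24858 transcripts tested, 16.9% were lower and 13.7% were higher (30.6% in all). The 1 chain with a positive log2 fold change was Col2a1, at 0.04 (adjusted p = 0.99), a value whose sign changed in 10 alternatives, and DESeq2 also called 0 higher. The lower chains were 9 of 11 fibrillar, 3 of 6 type IV and 19 of 26 others. The median log2 fold change was -3.87 over the 43 chains and -0.05 over all transcripts. It was -3.69 with Col28a1, which had no read in ysE, set at a floor of 3 counts.

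By edgeR (quasi-likelihood, Benjamini-Hochberg), Col3a1 was lower in ysE by a log2 fold change of -4.86 (SE 1.04, adjusted p = 0.0066), and Col1a2 by -4.42 (SE 0.781, adjusted p = 0.0026). Col5a1, a type V chain that regulates fibril width, had a log2 fold change of -3.54 (SE 0.348, adjusted p = 0.00023 by edgeR). The type IV chains divided. Col4a5 had a log2 fold change of -4.79 (SE 0.674, adjusted p = 0.00085 by edgeR), whereas Col4a1 at -0.26 (SE 0.748, adjusted p = 0.84) and Col4a2 at -0.18 (SE 0.731, adjusted p = 0.89) did not pass edgeR's test. With a floor of 3 counts per library, Col28a1 was 11.5-fold lower in ysE per raw library total. That value leaves out the TMM scaling factors of edgeR, 0.789 and 0.766 for ysE and 0.987 and 0.990 for mesoderm. With those it would be smaller, so it is not a lower bound on the scale of the other fold changes. Summed RPKM of 7 mesenchyme and smooth muscle markers was 21.3 and 26.9 in ysE against 905 and 659 in mesoderm, and 6 of the 7 were lower in ysE. The 5 vascular markers summed to 5.41 and 7.77 in ysE against 153 and 143 RPKM in mesoderm, and the 5 erythroid markers to 487 and 566 against 23268 and 18451, with all of both lists lower in ysE. Of the other lists, Upk3b (1 of 3 mesothelial), Sox9 and Matn1 (2 of 4 chondrogenic) and Thbd (1 of 6 parietal endoderm) were lower in ysE. Higher in ysE were 4 of 6 ysE markers, Pth1r (1 of 6 parietal endoderm), Fgb (1 of 4 hepatoblast) and Zfp42 (1 of 3 pluripotency). The part of these cell types in the differences was not tested. Without ysE library A or B, 16 or 18 chains were lower, where the lone library is assumed to vary like the other groups, and Col3a1 was no longer called without library A (adjusted p = 0.065 by edgeR).

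The next comparisons set cystic EBs, with d10 and d15 taken as 4 replicates, against each tissue. These comparisons share the cystic EB libraries. The 4 libraries come from only 2 clones, and libraries of 1 clone deviated together (correlation 0.746), so they are not 4 independent samples and the SEs and p-values treat them as if they were. Against E9.25 ysE, 23 chains were higher in cystic EBs and 1 was lower, where 27.1% and 23.2% of all transcripts were higher and lower (50.3% in all). The higher chains included many at a low level. Col4a3, Col4a4, Col19a1, Col6a5 and Col28a1 were each at most 0.0860 RPKM in cystic EBs. The more abundant Col3a1, Col1a2, Col1a1, Col5a2 and Col18a1 were not called. The median log2 fold change was 2.32 over the chains (2.28 with Col28a1 at the floor of 3 counts) and 0.17 over all transcripts. By edgeR (quasi-likelihood, Benjamini-Hochberg), Col6a1 had a log2 fold change of 3.74 (SE 0.666, adjusted p = 0.0016) and Col2a1 of 3.69 (SE 1.04, adjusted p = 0.015). Col8a1, a short chain of endothelial matrices, had the largest change called, 5.80 (SE 1.19, adjusted p = 0.0032 by edgeR), from 4 and 6 counts in ysE. Col27a1, a fibrillar chain of cartilage, was the chain that was lower, at -1.001 (SE 0.222, adjusted p = 0.0049 by edgeR). Col4a1 at 0.82 (SE 0.672, adjusted p = 0.33) and Col4a2 at 1.30 (SE 0.673, adjusted p = 0.13) did not pass edgeR's test, and without the d15 A library the Col4a1 value was -0.07. Col2a1 was not called without either ysE library, with an adjusted p of up to 0.108 by edgeR. The 7 mesenchyme markers summed to 73.6 to 256 RPKM among cystic EBs, with 4 of them higher than in ysE, and the 4 chondrogenic markers to 0.952 to 2.12 against 0.0310 and 0.0870, with all 4 higher. Of the other lists, 3 of 6 parietal endoderm markers (Fst, Lama1 and Sparc), 2 of 5 vascular and 2 of 3 pluripotency markers were higher, and all 6 ysE and all 5 erythroid markers were lower in cystic EBs. The part of these lists in the result was not tested.

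Against mesoderm, 3 chains were higher in cystic EBs and 16 were lower, where 13.9% and 15% of all transcripts were higher and lower (28.9% in all). Of the lower chains, 7 were fibrillar, of 11. By edgeR (quasi-likelihood, Benjamini-Hochberg), Col5a2 had a log2 fold change of -4.45 (SE 0.766, adjusted p = 0.0031), and Col1a1 of -4.33 (SE 0.762, adjusted p = 0.0035). Col2a1 went the other way, at 3.73 (SE 1.04, adjusted p = 0.026 by edgeR). Col4a1 at 0.56 (SE 0.663, adjusted p = 0.54 by edgeR) did not pass the test, and it was -0.36 without the d15 A library. Without mesoderm library A or B, 9 or 10 chains were lower and 1 was higher, and Col2a1 was not called (adjusted p up to 0.154 by edgeR). Markers moved with this comparison: 3 of 7 mesenchyme markers (Pdgfrb, Lum and Postn), 3 of 5 vascular markers (Kdr, Pecam1 and Tek), 1 of 3 mesothelial markers (Upk3b) and 5 of 5 erythroid markers were lower in cystic EBs, and 3 of 3 pluripotency markers were higher. Of the other lists, Sox9 (1 of 4 chondrogenic), Fst and Pth1r (2 of 6 parietal endoderm) and Ahsg (1 of 4 hepatoblast) were higher, and Thbd (parietal endoderm) and Amn and Cubn (2 of 6 ysE) were lower. The mesenchyme sum was 73.6 to 256 RPKM among cystic EBs and 659 to 905 in mesoderm, the vascular sum 8.67 to 48.9 and 143 to 153, and the erythroid sum 5.36 to 78.1 and 18451 to 23268. Their part in the lower chains was not tested.

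Against liver, 3 chains were higher in cystic EBs and 11 were lower, where 24.6% and 20.9% of all transcripts were higher and lower (45.4% in all). The higher chains were Col4a1, Col4a2 and Col2a1. By edgeR (quasi-likelihood, Benjamini-Hochberg), Col4a1 had a log2 fold change of 4.15 (SE 0.814, adjusted p = 0.0031), and Col4a2 of 3.58 (SE 0.770, adjusted p = 0.0049). The lower chains included Col6a1 at -2.65 (SE 0.519, adjusted p = 0.0031 by edgeR), Col6a2 and Col6a3 of type VI, and Col6a6 at -5.46 (SE 0.847, adjusted p = 0.0009 by edgeR), which was at 1.06 and 0.755 RPKM in liver and at most 0.0760 for cystic EBs. Summed RPKM of the 4 hepatoblast markers was 510 and 1088 for liver and 6.95 to 68.6 for cystic EBs, with all 4 lower in cystic EBs. The erythroid markers summed to 1114 and 2053 RPKM for liver and 5.36 to 78.1 among cystic EBs, with 4 of 5 lower. Higher in cystic EBs were 4 of 6 parietal endoderm markers (Pth1r, Lama1, Snai1 and Sparc), 3 of 7 mesenchyme markers (Acta2, Tagln and Postn) and 3 of 3 pluripotency markers. Matn1 (1 of 4 chondrogenic) was higher too. The ysE list divided, with Amn and Cubn higher and Afp and Hnf4a lower, of 6. So did the vascular list, with Hand1 higher and Pecam1 lower, of 5. The part of these lists in the result was not tested. Col6a3 was not called without liver A, liver B or d15 B, nor in the ScriptSeq libraries alone (adjusted p up to 0.087 by edgeR), whereas Col6a2 was called in each of these. Without liver library A, 5 chains were higher and 7 lower; without B, 1 was higher, with Col4a2 (adjusted p = 0.053 by edgeR) and Col2a1 (adjusted p = 0.089 by edgeR) no longer called, and without the d10 B library of cystic EBs 6 were.

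Against E12.5 ysE, which is 1 library whose spread is borrowed from the other groups, 14 chains were higher in cystic EBs and 4 were lower, where 21.1% and 18.8% of all transcripts were higher and lower (40% in all). Col22a1 and Col8a1 had no read in that library. With a floor of 3 counts there, they were 74.3-fold and 41.6-fold higher in cystic EBs per raw library total. These values leave out the TMM factors, 0.816 for E12.5 ysE and 1.12 to 1.21 for cystic EBs. With those they would be smaller, so they are not lower bounds on the scale of the other fold changes. Col15a1, a multiplexin, was lower in cystic EBs by edgeR (quasi-likelihood, Benjamini-Hochberg), at -4.25 (SE 0.923, adjusted p = 0.0058). Its RPKM was 2.89 in E12.5 ysE, and 0.0200 to 0.345 for cystic EBs. In this comparison the median over all transcripts was 0.42, and values are not corrected for that shift. Fitted on these libraries alone, 9 chains were higher and 2 lower, against 14.3% and 13.2% of all transcripts. All 6 ysE and all 4 hepatoblast markers were lower in cystic EBs. All 5 vascular, 5 of 7 mesenchyme, 3 of 4 chondrogenic, 3 of 6 parietal endoderm and 3 of 3 pluripotency markers were higher, and the part of these lists was not tested.

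**Figure D4:**
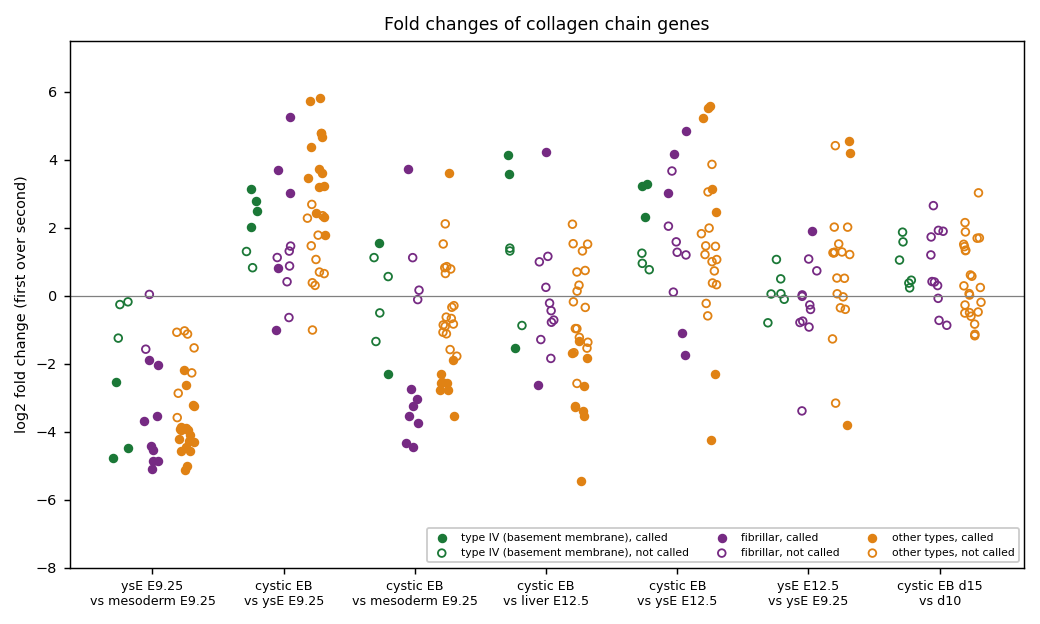
Log2 fold change (first group over second) of collagen chain genes in the 7 comparisons, coloured by class, filled where called at an FDR of 5%. Pairs in which a whole group had no read are left out; filled points lie below 0 in ysE against mesoderm, and mostly above 0 in cystic EB against E9.25 ysE.

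The comparison of E12.5 with E9.25 ysE asked how the endoderm changes with age, with 1 library against 2. The single E12.5 library gives no spread of its own, so the SEs and p-values take its spread from the other groups. There were 4 chains called, 3 higher and 1 lower at E12.5, where 3.9% and 4.57% of all transcripts were higher and lower (8.47% in all). Fitted on these 3 libraries alone, 11 were higher and 7 lower, where 25.1% and 25.2% of all transcripts were. The median log2 fold change over all transcripts was -0.21, and -0.04 with DESeq2 size factors. Col9a2, a FACIT chain, had a log2 fold change of 4.19 (SE 0.520, adjusted p = 0.0029 by edgeR (quasi-likelihood, Benjamini-Hochberg)), from 0.149 and 0.307 to 4.43 RPKM. Col5a1 at 1.90 (SE 0.372, adjusted p = 0.017 by edgeR) and Col15a1 at 4.55 (SE 1.18, adjusted p = 0.045 by edgeR) were the other higher chains, and Col13a1, a transmembrane chain, was lower at -3.81 (SE 0.825, adjusted p = 0.024 by edgeR). Col13a1 had 3 counts in the E12.5 library (0.0240 RPKM), against 103 and 181 at E9.25 (0.297 and 0.348 RPKM). Its call thus rests on 1 value near the floor. Stage, library protocol and time in DispaseII cannot be told apart in this comparison. Without either E9.25 library, 1 chain, Col9a2, was higher and 0 lower. The vascular markers summed to 0.279 RPKM at E12.5, with 3 of 5 lower than at E9.25, and the erythroid markers to 23.1, with 4 of 5 lower. Of the 4 hepatoblast markers 2 were higher at E12.5, Alb from 0.221 and 0.194 to 80.5 RPKM and Ahsg from 0.0400 and 0.0720 to 152 RPKM. Pdgfra, Wt1, Pth1r and Sox9, each from another marker list, were lower, and the part of these cell types was not tested.

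Between d15 and d10 cystic EBs, 0 of 41 chains tested were called by edgeR (quasi-likelihood, Benjamini-Hochberg), and 0% of all 22452 transcripts were. At an unadjusted p under 0.05 there were 6 chains, where 1.35% of all transcripts were. With the clone as a block there were 18 chains, where the share of all transcripts was 10.7%. DESeq2 called 2 chains, where 0.0757% of all transcripts were higher by the same rule, Col1a1 at 2.65 (SE 0.523, adjusted p = 0.0018) and Col1a2 at 1.92 (SE 0.457, adjusted p = 0.040), both higher on d15. With the clone as a block in edgeR these were 2.61 (SE 0.183, adjusted p = 0.28) and 1.90 (SE 0.174, adjusted p = 0.28). In each clone Col1a1 was higher on d15, from 3.14 to 20.7 RPKM in A9 and from 2.43 to 13.995 in JN.

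Enzymes and partners of collagen were taken from a list of 44 genes. In E9.25 ysE against mesoderm, 22 of 44 were lower and 0 higher, where 16.9% and 13.7% of all transcripts were. For cystic EBs against E9.25 ysE 20 were higher and 3 lower (27.1% and 23.2% of all transcripts), and against mesoderm 3 were higher and 16 lower (13.9% and 15%). Against liver 10 were higher and 9 lower (24.6% and 20.9%), near the share of all transcripts, and against E12.5 ysE 16 were higher and 7 lower (21.1% and 18.8%). From E9.25 to E12.5 ysE 4 were higher and 2 lower (3.9% and 4.57%), and between the days of cystic EBs 0 of 43 tested were called. Serpinh1, the chaperone of procollagen, was at 248 and 271 RPKM in E9.25 ysE, 709 and 614 for mesoderm and 43.7 and 29.1 for liver. P4ha1, a prolyl hydroxylase subunit, was higher in cystic EBs than in mesoderm by a log2 fold change of 1.31 and than in E9.25 ysE by 2.45, both called by edgeR. Pcolce, an enhancer of procollagen cleavage, was lower in E9.25 ysE than in mesoderm at -4.68, and Plod2, a lysyl hydroxylase, at -3.06, both called by edgeR. Sparc, a collagen-binding protein also listed as a parietal endoderm marker, was at 1360 RPKM in the d15 A library and 152 to 321 in the other cystic EB libraries. Summed RPKM of the 6 parietal endoderm markers, Sparc included, was 1637 in d15 A and 216 to 393 in the others, and its part in the high Col4a1 and Col4a2 of that library was not tested.

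DNA methylation was read from bisulfite sequencing of ysE E12.5, liver E12.5 and cystic EB d15, 2 libraries each from reciprocal crosses of CAST and FVB (CxF and FxC), the cystic EBs being from clones CF-C2 and FC-A2. Gene bodies of 37 of the 43 genes had at least 10 CpG reads in all 6 libraries, with a median of 409 reads and a range of 28 to 3012. Their median methylation was 60.8% ± 6.47 for ysE, 78.9% ± 2.28 for liver and 86.8% ± 1.96 for cystic EBs (SD, n = 2 each), against 70.5%, 80.4% and 84.0% over 13906 genes. Both ysE libraries lay below the other 4 in 27 members (73.0%), and in 45.9% of all genes. These shares are not matched for the number of reads or the length of the gene body. Where reads are few, sampling can break such an order, so the difference in shares was not read as a trait of the chains. An exact permutation test of 2 libraries against 2 cannot go below a two-sided p of 0.333, and no test or model of methylation was run.

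Col3a1 had the lowest ysE gene body among the highly expressed chains, at 41.8% and 23.4% (79 and 77 reads), against 70.8% and 72.6% for liver and 84.1% and 91.7% for cystic EBs. The Col4a1 body was at 80.8% and 74.2% for ysE, 70.8% and 76.7% for liver and 90.3% and 85.2% for cystic EBs, so ysE overlapped liver there. Promoters had too few reads: no member had 10 in all 6 libraries.

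**Figure D5:**
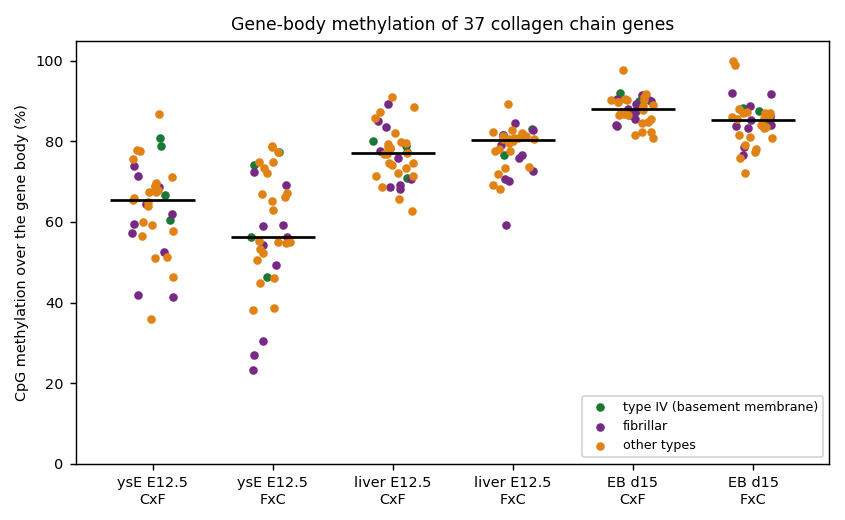
CpG methylation (%) over the gene bodies of 37 collagen chain genes in 6 bisulfite libraries, each point a gene coloured by class, with the median as a black line. The ysE libraries sit lowest, with medians of 65.4% (CxF) and 56.3% (FxC), and Col3a1 is the lowest fibrillar point in FxC.

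Trimethylation of histone H3 at lysine 4 (H3K4me3), a mark of active or poised promoters, was deposited as peaks of whole VYS at E12.5, from 1 pooled sample holding both layers. A peak overlapped the promoter, 1 kb to either side of the start, of 21 of the 35 chains with a known strand (60%), against 57.4% of 17492 genes. By class these were 6 of 8 fibrillar, 4 of 5 type IV and 11 of 22 others. The score is the one the peak caller gave and grows as the p-value against input falls. The top score among the chains, 3100, was shared by 9 of them and by 4438 of all genes, so it does not rank them. These were Col1a2, Col3a1, Col5a1, Col11a1, Col27a1, Col4a1, Col4a2, Col6a2 and Col6a3, and they include chains at a low level in E12.5 ysE, such as Col6a2 at 0.286 RPKM and Col6a3 at 0.582. Col4a1 and Col4a2 share 1 start region, and the windows of Col4a5 and Col4a6 overlap and have the same top score, so the 4 type IV chains with a peak rest on 2 start regions.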

How the data were processed

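The authors aligned reads to mm10 with GSNAP 2012-12-12, and deposited raw counts per RefSeq transcript and RPKM; the deposited percent methylation per CpG was called with BisSNP, and the deposited H3K4me3 peaks carry the MACS 1.4.2 score. The members and gene lists were chosen with earlier results of these data known. Counts were filtered with filterByExpr, scaled by TMM and fitted over 5 tissues (24858 transcripts) in edgeR 4.0.16; days were fitted on the 4 cystic EB libraries alone. DESeq2 1.42.0 and limma 3.58.1 were alternatives. The labels do not say that replicates are separate animals beyond pooled litters, so p-values measure the spread between these samples. Intervals of counting were not used. A floor of 3 counts covers counting error only, and values from it use raw library totals without TMM. Genes named were a fixed list of chains, any other chain at a mean of 5 RPKM or more in a tissue, and the largest changes called. Cystic EB days share clones: deviations of same-clone libraries had a correlation of 0.746. The promoter table gave a strand for 35 members; for methylation, 4 more were placed at the gene end near a peak and 4 had none, and the peak count used the 35 alone, since the other placement uses the peaks. Methylation was the share of methylated reads. Scripts were tested on simulated data. Exon-part and repeat counts were not used here.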

Additional observations from a re-analysis of the deposited data

Results flagged for a closer look

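In groups of 4 libraries, a library was marked when its gap to the nearest other passed Dixon's critical value for that number. Chance marks about 1 group in 20 only if the values are normal draws from 1 population. Here unlogged RPKM was used over libraries of different clones, days and protocols, so that rate need not hold. Of 29 chains named, 5 were marked in the 4 cystic EB libraries, which span both days and clones. The marked value was the highest each time and came from the d15 A library: 693 RPKM for Col4a1, 375 for Col4a2, 4.37 for Col6a3, 5.44 for Col12a1 and 0.0760 for Col6a6.

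The change from d10 to d15 went in opposite directions in clones A9 and JN for 11 of 29 chains, and by at least 2-fold in both for 3. The log2 ratio of d15 to d10 in A9 was -1.07 for Col15a1, -1.33 for Col9a1 and 1.28 for Col28a1, and in JN it was 3.74, 2.32 and -1. Each clone has 1 library a day, so the difference was not tested, and Col28a1 rests on 2 to 8 counts a library and lies at the limit in JN. The 2-fold limit was chosen after seeing the data.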

How the results depend on the processing

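Counts of chains are given as higher and lower in the first group. For cystic EB against E9.25 ysE the lower count was 2 with library protocol as covariate and with dUTP libraries only, and 0 with limma on log2(RPKM + 1) and on log2(RPKM + 0.1). For cystic EB against mesoderm the higher count was 6 with DESeq2, 1 with limma on log2(RPKM + 1) and 1 at an FDR of 1%, where the lower count was 10. For cystic EB against liver the higher count was 7 with DESeq2, 5 with ScriptSeq libraries only, 5 with limma at a pseudocount of 1 and 6 at 0.1, and the lower count was 7 at an FDR of 1%. For cystic EB against E12.5 ysE the counts were 9 and 2 with only the groups compared and 3 and 2 at an FDR of 1%, and the higher count was 5 with limma at a pseudocount of 1. For E12.5 against E9.25 ysE the counts were 11 and 7 with only the groups compared and 1 and 0 at an FDR of 1%, and the lower count was 2 with DESeq2 and 0 with both limma fits. In d15 against d10, DESeq2 called 2 higher. With the days summed per clone, so that cystic EBs enter as 2 clones, a choice made after seeing the data, the counts were 27 and 2 against E9.25 ysE, 3 and 15 against mesoderm, 6 and 11 against liver and 18 and 4 against E12.5 ysE. The cause of these shifts was not tested.

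Leaving out 1 library in turn gave 0 higher and 16 to 24 lower for ysE against mesoderm, and, for cystic EBs, 16 to 28 higher and 1 to 2 lower against E9.25 ysE, 1 to 4 higher and 9 to 16 lower against mesoderm, 1 to 6 higher and 7 to 13 lower against liver, and 10 to 17 higher and 4 lower against E12.5 ysE. It gave 1 higher and 0 lower for E12.5 against E9.25 ysE, and 0 in either direction for d15 against d10.

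Leaving out 1 library, Col4a1, not called, ranged from -0.073 to 1.09 for cystic EBs against E9.25 ysE, from -0.36 to 0.82 against mesoderm and from -0.18 to 1.03 against E12.5 ysE, with the lowest value of each without the d15 A library. It changed sign against mesoderm at -0.26 with library protocol as covariate and -0.21 with dUTP libraries only. Of 109 other pairs of a named chain and a comparison that were not called, 32 changed sign and 41 were called in at least 1 alternative, so no fold change is given for these except where stated.

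With the replicate letter as a block, chain counts stayed within 1.5 times in the 5 comparisons that share letters; it was not fitted for the others, which involve the single E12.5 ysE library. Outside cystic EBs the letters were treated as names only. The labels do not say whether ysE and mesoderm of the same letter came from the same litter. Their deviations were correlated at -0.103, which cannot settle this with 2 libraries each. In ysE against mesoderm with the letters crossed, 4322 transcripts were lower and 3633 higher, against 4375 and 3631 uncrossed. That crossing was a choice made after seeing the data. With DESeq2 size factors 1240 transcripts were higher and 876 lower at E12.5 against E9.25 ysE, against 969 and 1137 with TMM. Promoter methylation gave no member value at 10 reads; at 5 reads, 6 members had medians of 38.5% for ysE, 60.8% for liver and 60.3% for cystic EBs. Counts of peaks moved by less than 1.5 times in the alternatives run. With the mean of CpG percents, gene-body medians moved by less than the spread between libraries, for ysE from 60.8% to 65.3%. Limits of 5 and 20 reads kept the same 37 gene bodies, since the lowest had 28 reads, so these could not differ. Leaving out 1 of 2 libraries always moves their mean by less than their SD, so it is no check of these medians.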
